A study of Mus musculus with 36 samples.

Results

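The transcripts described here belong to cyclic AMP signalling in tissue enriched for the suprachiasmatic nucleus (SCN), the site of the central circadian clock of mammals. They were chosen by symbol: every row named as an adenylyl cyclase (Adcy and a digit), a phosphodiesterase (Pde and a digit) or a subunit of protein kinase A (Prkac or Prkar), together with Creb1, Crtc1, Crtc2, Crtc3, Adcyap1 and Adcyap1r1. A row also had to reach a mean level of at least 1 over all libraries. Of 24883 rows, 48 had such a name and 41 passed the level. The 41 are 9 cyclases, 17 phosphodiesterases, 2 catalytic and 4 regulatory kinase subunits, 1 ligand, 1 receptor, the transcription factor Creb1 with its 3 Crtc coactivators, and 3 rows that carry a Pde symbol without coding for an enzyme that cleaves cyclic AMP or cyclic GMP. These 3 are Pde12, a mitochondrial RNA-trimming enzyme, Pde4dip, a centrosome and Golgi scaffold, and Pde6d, a chaperone of lipid-modified proteins.

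RNA came from adult C57BL/6J mice that had eaten either normal chow or a high-fat diet for 10 weeks, and each diet was sampled at 6 zeitgeber times (ZT 0, 4, 8, 12, 16 and 20) with 3 libraries each, 36 in all. All groups share strain, stage and tissue, and neither the labels nor the protocols name a sex or tie the 3 libraries at a time and diet to different mice, so p-values here cover the spread among libraries, which may be technical. The question was how diet and time of day bear on transcripts in this tissue. Levels are FPKM (fragments per kilobase and per sequenced fragment total) rescaled so that each library sums to 1e+06; FPKM is per length, so levels of different genes can be set side by side.

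Cyclic AMP is made from ATP by adenylyl cyclases, which G protein-coupled receptors switch on through the stimulatory G protein and off through the inhibitory one. It releases the catalytic subunits of protein kinase A from their regulatory subunits, and the kinase phosphorylates CREB, which with CRTC coactivators turns on genes that carry a cAMP response element. Phosphodiesterases end the signal by cleaving the nucleotide. In the SCN the pathway carries input from light, by way of the peptide PACAP and its receptor PAC1, and input from neighbouring neurons by way of VIP, and cyclic AMP itself cycles over the day in SCN slices.

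The cAMP response element is the DNA sequence through which CREB acts, so the promoters of the members were searched for it. RefSeq promoters (GRCm38.p6, from 250 bases before to 50 after each start) matched 34 of the 41 members. Members had 73 windows, 2.15 per gene against 1.22 per gene over all genes, so shares are given per window, and windows of 1 gene can overlap. The full palindrome TGACGTCA stood in 2 of the 73 windows (2.74%), against 1.79% of all 32851 windows. Both are overlapping windows of Prkar1a that hold the same element, which is therefore counted in each. The short element TGACG, read on both strands and also found inside the full one, stood in 17 of 73 (23.3%) against 20.8%. The E-box CACGTG, the palindrome bound by the clock activators, stood in 5 of 73 (6.85%) against 7.15%. Below are 1 Prkar1a window, shown because it holds the full element 49 bases before the start, and the Creb1 window, shown because Creb1 is the member with the smallest rhythm p under normal chow. Capitals mark full and short elements; the Creb1 window has none.
Prkar1a, chr11:109650699-109650998, plus strand: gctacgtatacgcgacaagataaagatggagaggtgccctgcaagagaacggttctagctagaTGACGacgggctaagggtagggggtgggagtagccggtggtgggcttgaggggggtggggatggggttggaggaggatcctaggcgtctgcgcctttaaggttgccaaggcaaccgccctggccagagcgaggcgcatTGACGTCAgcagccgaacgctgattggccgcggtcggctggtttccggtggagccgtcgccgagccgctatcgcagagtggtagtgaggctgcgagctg
Creb1, chr1:64532554-64532853, plus strand: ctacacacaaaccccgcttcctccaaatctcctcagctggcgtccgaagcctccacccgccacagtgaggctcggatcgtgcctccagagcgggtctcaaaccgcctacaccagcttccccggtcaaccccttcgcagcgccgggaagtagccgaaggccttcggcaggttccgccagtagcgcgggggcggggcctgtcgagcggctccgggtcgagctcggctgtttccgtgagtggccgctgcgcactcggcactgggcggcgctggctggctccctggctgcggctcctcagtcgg
A match is a description of these letters and not a bound site.

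Several libraries stood apart in tissue makeup. Deposited values summed to 302899 to 432336 per library, and reads per library are unknown. The 7 SCN markers summed to 513.3 to 2813 under normal chow and 251.8 to 4357 under high-fat diet, with none at 0 in any library. The 8 striatal marker rows summed to a median of 143 and exceeded 5 times that in 2 libraries, the third replicate of normal chow at ZT 12 (1274.6) and the third of high-fat diet at ZT 16 (1794.5), called striatum-rich below. In the second it went with the highest sum of 4 cortical markers, 230.6. Liver markers exceeded 10 times their median in 3 libraries. The second replicate of high-fat diet at ZT 8 had the lowest deposited sum and the lowest SCN marker sum, and 21 of the 41 members had their highest level there, against 36.3% of all rows. In bulk tissue, fewer cells of a type and less RNA per cell cannot be told apart.

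The catalytic and type I regulatory subunits of the kinase were the most abundant members. Prkar1b and Prkar1a, the type I regulatory subunits, stood at 683.9 and 657.8 on average over 36 libraries, and the catalytic subunits Prkacb and Prkaca at 390 and 293.3. Prkar1b was above Prkar1a in 26 of 36 libraries and their means lay within 1 SD of each other, while Prkar1a was above Prkacb in every library. The type II regulatory subunits, Prkar2a at 63.01 and Prkar2b at 57.92, were far lower. Their means lay within 1 SD of each other, and their medians were 62.38 and 55.14.

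The balance between kinase subunits varied little between libraries. Summed catalytic over summed regulatory level was 0.466 ± 0.0202 with normal chow and 0.467 ± 0.0242 with high-fat diet (SD, n = 18 each), and it ran from 0.431 to 0.524 over all 36. The type I to type II ratio varied more, from 7.04 to 15.9, with means of 11.2 ± 1.44 and 11.4 ± 1.86 (SD, n = 18 each). Prkaca had a lowest, median and highest level of 255.1, 283.9 and 351.7 under normal chow and 191, 292.7 and 363.9 under high-fat diet, so the diets overlapped.

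**Figure D1:**
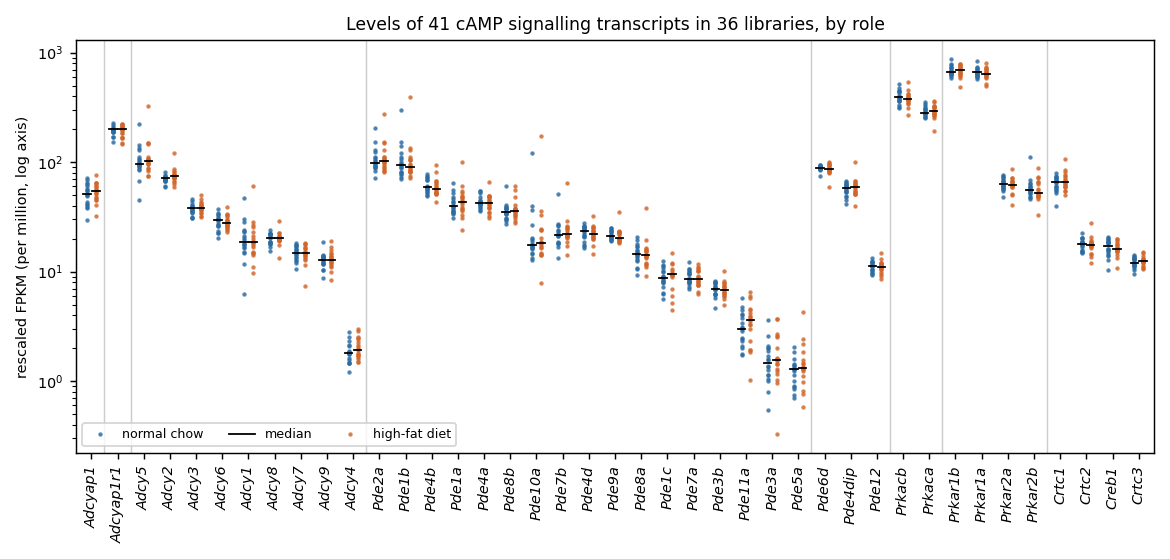
Level of each of the 41 members in rescaled FPKM (log axis), grouped by role from ligand and receptor through enzymes and kinase subunits to CREB and CRTC, with 1 point per library (18 per diet) and a bar at the median of each diet. The catalytic and type I regulatory kinase subunits sit highest, Adcy4, Pde3a and Pde5a lowest, and isolated high points mark Adcy5, Pde1b, Pde2a, Pde7b and Pde10a.

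Among ligand and receptor, the receptor transcript was the higher one. Adcyap1r1, which codes for PAC1 (chromosome 6, 55451978 to 55501451, GRCm38), stood at 194 on average, above every cyclase. Its lowest, median and highest levels were 153.4, 199.1 and 227.5 under normal chow and 146.8, 199.5 and 222.8 under high-fat diet. Adcyap1, which codes for PACAP (chromosome 17, 93199017 to 93206537), stood at 52.85. Its levels were 29.75, 50.98 and 71.1 under normal chow and 32.22, 54.22 and 76.71 under high-fat diet, and the lowest library of each diet was the striatum-rich one.

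Adcy5 and Adcy2 made up most of the cyclase signal. Adcy5, a cyclase inhibited by calcium and abundant in striatum, averaged 111.5, and its share of the summed cyclase level was 33.2% in normal chow and 34.1% in high-fat libraries. Adcy2, a cyclase that G protein beta-gamma subunits stimulate, averaged 73.28, with shares of 22.9% and 23.4%. Adcy3, best known from olfactory neurons and neuronal cilia, stood at 38.12 and the calcium-inhibited Adcy6 at 28.61. The means of the calmodulin-stimulated pair Adcy1 (20.7) and Adcy8 (20.17) lay within 1 SD of each other. Adcy1 was the higher one in 13 of 36 libraries. Adcy7 stood at 14.76, Adcy9 at 12.94 and Adcy4, known from endothelium, at 1.947. The soluble cyclase Adcy10 averaged 0.0376 and stayed below the level set for members.

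Among phosphodiesterases, Pde2a and Pde1b led. Pde2a, which cyclic GMP stimulates, averaged 111.4 and the calmodulin-dependent Pde1b 110, each about as high as Adcy5 and within 1 SD of it. They held 20.1% and 19.7% of the summed phosphodiesterase level under normal chow and 20.5% and 19.2% under high-fat diet. The cAMP-specific enzymes Pde4b (60.69), Pde4a (43.12) and Pde4d (22.52) followed with Pde1a, another calmodulin-dependent enzyme (43.73), and with Pde8b (36.86). Pde10a, a dual-specificity enzyme abundant in striatal neurons, had a mean of 26.73 but its median was 17.46 in the normal chow libraries and 18.39 in the others. The cGMP-selective Pde9a stood at 21.63, Pde7b at 23.57, Pde8a at 15.02, Pde1c at 9.027, Pde7a at 8.899, Pde3b at 6.94 and Pde11a at 3.392. Pde3a (1.695) and Pde5a (1.376), both known from smooth muscle, lay just inside the level for members, and Pde4c (0.887) just outside. The photoreceptor subunits Pde6a, Pde6b, Pde6c, Pde6g and Pde6h averaged 0.0236 to 0.635.

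Of the transcription factor and its coactivators, Crtc1 was the highest at 65.96, with 57.4% of the summed level of the 4 in normal chow and 59.2% in high-fat libraries. Crtc2 averaged 17.75, Creb1 16.55 and Crtc3 12.37. The means of Crtc2 and Creb1 lay within 1 SD of each other, and Crtc2 was the higher one in 22 of 36 libraries. Pde6d, Pde4dip and Pde12 averaged 87.85, 58.28 and 11.13.

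No member passed the test for a 24 h rhythm under normal chow, where 0.845% of all 15150 rows did (limma F test of a fitted cosine, Benjamini-Hochberg adjusted p under 0.05 over all rows). At an unadjusted p under 0.05 there were 9 of 41 members, against 18.2% of all rows. The median fitted peak-to-trough fold was 1.19 for members and 1.14 for all rows. The fitted peak fell between ZT 12 and 18 in 23 of the 41 and between ZT 18 and 24 in 12, and in 5497 and 3998 of all 15150 rows. The 9 members were Creb1, Crtc1, Pde1a, Pde3a, Pde5a, Pde9a, Pde11a, Pde4dip and Prkar2a, and of these only Pde9a had its fitted peak outside the span from ZT 14 to 19, at ZT 1.53. That span was read from these same peaks, and the share of all such rows that peak in it is not known.

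Creb1 (chromosome 1, 64532645 to 64604548, GRCm38) had the smallest p. Under normal chow its levels were 15.8, 16.15 and 20.33 at ZT 0, 16.23, 10.41 and 14.04 at ZT 4, 13.92, 14.77 and 15.27 at ZT 8, 12.66, 18.7 and 18.29 at ZT 12, 19.13, 20.84 and 18.51 at ZT 16, and 18.34, 19.63 and 19.99 at ZT 20. The 6 libraries of ZT 16 and ZT 20 all lay above the 6 of ZT 4 and ZT 8. The fitted fold was 1.43 with a peak at ZT 18.06 ± 0.88 h (SE, n = 18 libraries), and the adjusted p of the limma test was 0.0858. The adjusted p lay on both sides of the threshold under other settings: it was 0.0478 with median-of-ratios scaling and 0.0475 with the values as deposited, but 0.0953 without the striatum-rich library, 0.114 with no filter and 0.305 with 5 marker scores as covariates. With 1 library left out at a time it ran from 0.0463, without the first replicate at ZT 12, to 0.151, and the fold from 1.34 to 1.47.

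Under high-fat diet the Creb1 levels were 17.62, 15.63 and 17.45 at ZT 0, 16.51, 15.28 and 13.31 at ZT 4, 14.31, 19.7 and 15.71 at ZT 8, 15.57, 15.93 and 16.31 at ZT 12, 16.56, 18.84 and 18.17 at ZT 16, and 15.13, 19.92 and 10.71 at ZT 20. The 3 libraries of ZT 20 spanned the lowest and the highest level of that diet. The fitted fold was 1.07 (limma adjusted p = 0.901). The difference in Creb1 rhythm between diets had an unadjusted p of 0.0514 and an adjusted p of 0.378 in limma, so a difference between diets was not shown. Creb1 followed none of the 5 marker scores tested.

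**Figure D2:**
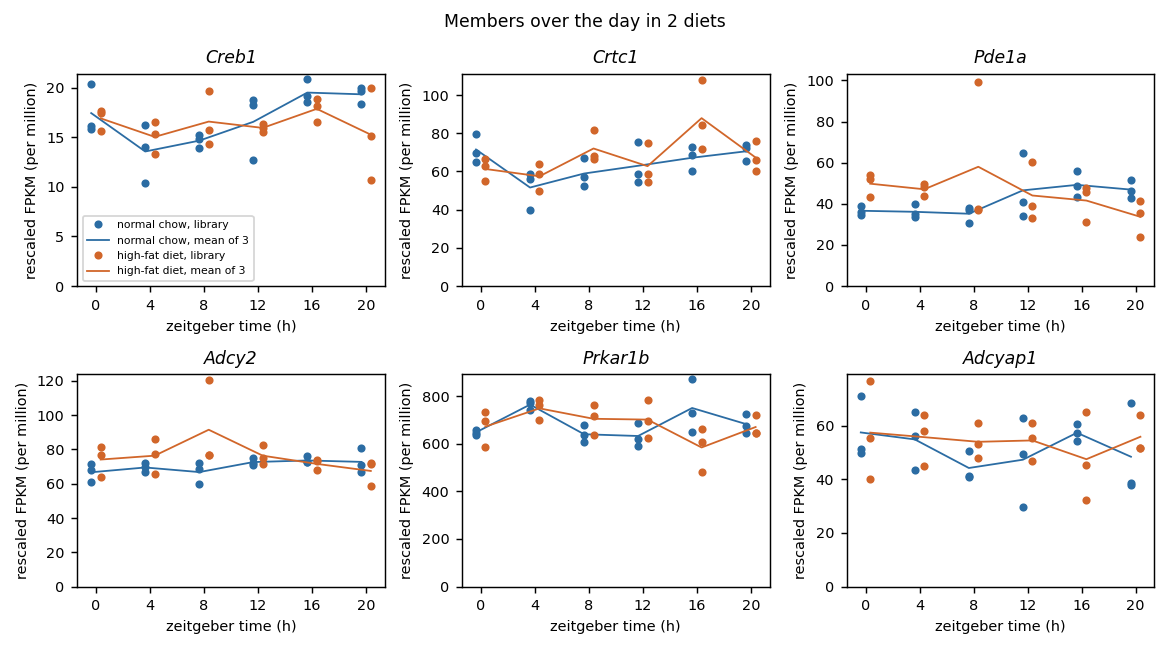
Levels in rescaled FPKM of Creb1, Crtc1, Pde1a, Adcy2, Prkar1b and Adcyap1 at 6 zeitgeber times under normal chow and high-fat diet, with 1 point per library and a line through the means of 3. Creb1 under normal chow is higher at ZT 16 and 20 than at ZT 4 and 8, and at ZT 8 under high-fat diet 1 library stands high for Pde1a (99.3) and Adcy2 (120.7).

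Pde1a and Pde3a came next under normal chow. Pde1a (chromosome 2, 79834453 to 80129458) ran from 30.64 to 39.79 in the 9 libraries of ZT 0, 4 and 8 and from 43 to 55.78 in the 6 of ZT 16 and 20, with no overlap between these times. At ZT 12 it stood at 34.23, 40.77 and 64.64, the last in the striatum-rich library. Its fitted fold was 1.44, peaking at ZT 16.5 (limma adjusted p = 0.116). Pde3a, which ran from 0.5423 to 3.573 with a median of 1.458, had a fitted fold of 1.55 and a peak at ZT 15.7 (limma adjusted p = 0.203).

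The fixed members representing ligand, receptor, kinase and striatum-rich enzymes showed no rhythm past the test in either diet. The fitted fold of Adcyap1 was 1.18 in normal chow and 1.13 in high-fat libraries, that of Adcyap1r1 1.05 and 1.15, and that of Prkaca 1.03 and 1.24. Their limma adjusted p ran from 0.576 to 0.955. On the log2(value + 1) scale Pde10a had the widest fitted swing of all members in both diets, 1.62 in each. Its peak lay at ZT 13.6 and 13.2 (limma adjusted p = 0.584 and 0.739). The rank depends on the pseudocount: with 0.1 the normal chow fold was 1.65 for Pde10a and 2.05 for Pde3a. Without the striatum-rich library of each diet the Pde10a folds were 1.22 and 1.43.

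Under high-fat diet no member passed either, against 0.0728% of 15106 rows, and 0 of 41 had an unadjusted p under 0.05 in limma, against 8.64% of all rows. The median fold was 1.19 for members and 1.15 for all rows. Fitted peaks fell between ZT 6 and 12 in 22 of 41 members and in 6269 of all rows. The smallest p belonged to Adcy4, Adcy2 and Crtc1, with fitted folds of 1.26, 1.25 and 1.30, peaks at ZT 6.18, 7.74 and 15.3, and limma adjusted p of 0.575, 0.575 and 0.576. Without the second replicate of ZT 8 the fold of Adcy2 was 1.13 and that of Adcy4 1.21.

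**Figure D3:**
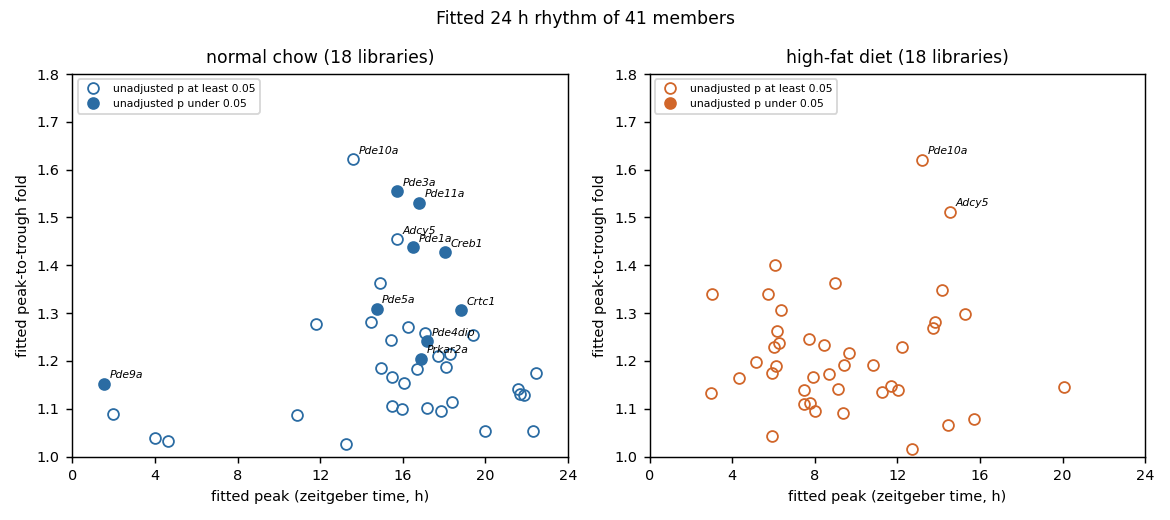
Fitted peak-to-trough fold against fitted peak time for the 41 members under normal chow (left) and high-fat diet (right), 18 libraries each; filled points have an unadjusted p under 0.05. Normal chow has 9 filled points, 8 of them with a peak between ZT 14 and 19, a span read from these points, and high-fat diet has none.

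A rhythm common to both diets was tested over all 36 libraries. No member passed, against 2.18% of 15173 rows, and 3 of 41 had an unadjusted p under 0.05 against 13.1% of rows. Crtc1 (chromosome 8, 70382355 to 70439579), the CREB coactivator, had the smallest p, with levels of 40, 65.36 and 79.81 (lowest, median and highest) under normal chow and 49.71, 66.19 and 107.6 under high-fat diet. At ZT 4 it stood at 58.88, 40 and 55.9 under normal chow and 63.78, 58.93 and 49.71 under high-fat diet, and at ZT 16 at 72.8, 60.33 and 68.41 and at 71.73, 84.37 and 107.6. In each diet the lowest library was one of ZT 4, and under high-fat diet every library of ZT 16 lay above every library of ZT 4. Its fitted fold was 1.27, peaking at ZT 17.1 (limma adjusted p = 0.164), and without the striatum-rich libraries 1.21 (adjusted p = 0.313). The limma adjusted p was 0.0563 with median-of-ratios scaling, 0.0622 with the values as deposited and 0.123 with marker scores as covariates.

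Creb1 had a common fold of 1.22, peaking at ZT 17.6 (limma adjusted p = 0.259), and Adcy5 one of 1.48 with a peak at ZT 15.1 (adjusted p = 0.312). For Creb1 the adjusted p was 0.0423 with median-of-ratios scaling, 0.357 without the striatum-rich libraries and 0.321 with marker scores as covariates. With 1 library left out it ran from 0.0286, without the third replicate of high-fat diet at ZT 20, to 0.448. Adcy5 (chromosome 16, 35154877 to 35305738) had levels of 45.34, 97 and 225.1 under normal chow and 75.32, 101.7 and 325.9 under high-fat diet, the highest being the striatum-rich library in each. Without these libraries its fold was 1.25 (limma adjusted p = 0.627).

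Rhythms were then compared between diets. No member differed, and 0% of 15173 rows passed (limma F test of the interaction of diet with both rhythm terms). At an unadjusted p under 0.05 there were 6 of 41 members and 13.2% of rows. They were Pde1a, Adcy2, Pde5a, Pde3a, Prkar1a and Prkacb. Pde1a had the smallest, 0.0086, with an adjusted p of 0.357, and its fitted peak lay at ZT 16.5 under normal chow and ZT 6.05 under high-fat diet. Its levels under high-fat diet were 53.98, 43.53 and 51.82 at ZT 0, 37.21, 99.3 and 37.52 at ZT 8, 30.94, 45.91 and 47.92 at ZT 16 and 35.68, 41.44 and 23.92 at ZT 20. The 3 libraries of ZT 0 all lay above the 3 of ZT 20, which is the opposite order to normal chow. Without the library at 99.3, which had the lowest deposited sum, the size of the difference was 0.407 in place of 0.494 on the log2 amplitude scale. Adcy2 (unadjusted p = 0.025) and Pde5a (0.0271) had the same limma adjusted p of 0.357.

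Diet itself, compared over all time points, moved no member past the test (limma with time point as a factor, adjusted p = 1 for all 41), and 0.0132% of 15173 rows passed. No member had an unadjusted p under 0.05, against 2.56% of rows. The log2 difference, high-fat diet minus normal chow on the log2(value + 1) scale, was positive in 23 of 41 members and in 49.5% of all rows, and its median was 0.011 and -0.000508. Each interval is unadjusted, covers only the spread among libraries and averages over time points. It does not bound differences at single times of day. In 31 of 41 members the 95% interval lay within 0.3 either way, and in 40 within 0.5.

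Adcy2 (chromosome 13, 68620043 to 68999541) had the smallest p. Its lowest, median and highest levels were 59.57, 71.12 and 80.66 under normal chow and 58.91, 74.37 and 120.7 under high-fat diet, and the difference was 0.10 ± 0.057 (SE), with an interval from -0.0136 to 0.217. Without the library at 120.7 it was 0.0614. For Adcy4 and Crtc1 the difference was 0.09 with SE 0.073 and 0.069. Those of Adcyap1 (0.08, from -0.135 to 0.289), Adcyap1r1 (-0.02, from -0.128 to 0.0915), Prkaca (0.01, from -0.10 to 0.122) and Creb1 (-0.04, from -0.179 to 0.10) also spanned 0. Adcy5 had 0.11 with an interval from -0.171 to 0.40, but 0.0323 without the striatum-rich high-fat library, 0.188 without the normal chow one and 0.0233 with marker scores as covariates. Without the same libraries the difference was 0.0564 for Crtc1 (high-fat) and 0.0298 for Adcyap1 (normal chow). Pde10a had the widest interval, from -0.51 to 0.537, with levels of 12.79, 17.46 and 120 under normal chow and 7.86, 18.39 and 173.5 under high-fat diet.

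**Figure D4:**
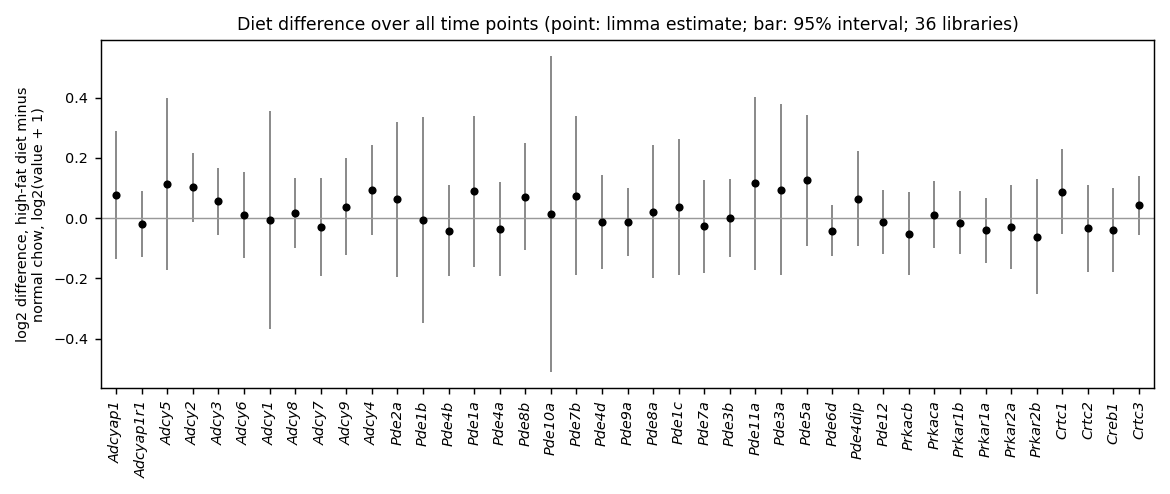
Log2 difference between diets (high-fat diet minus normal chow, log2(value + 1)) for each of the 41 members, ordered by role, with the 95% interval from limma over 36 libraries. Every interval spans 0, and Pde10a has the widest, from -0.51 to 0.537.

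At single time points no member passed either (limma contrasts of 12 group means). The share of rows that passed was 0.00659% at ZT 12 and 0% at the other 5 times. Members with an unadjusted p under 0.05 numbered 1 at ZT 0, 0 at ZT 4, 6 at ZT 8, 0 at ZT 12, 5 at ZT 16 and 1 at ZT 20, against 3.90%, 1.50%, 16.1%, 0.975%, 10.7% and 3.99% of rows. The difference was positive in 21, 34, 38, 14, 17 and 6 of the 41 members at these times, in the same order, and in 47.2%, 64.0%, 70.8%, 41.3%, 44.7% and 35.5% of rows.

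At ZT 8 the cyclase Adcy2 had the smallest p. It stood at 68.89, 59.57 and 71.95 under normal chow and at 77.01, 120.7 and 76.83 under high-fat diet, with no overlap, a difference of 0.42 ± 0.129 (SE) and a limma adjusted p of 0.273. The other members with an unadjusted p under 0.05 were Adcy3, Crtc3, Pde11a and Pde4dip, with positive differences, and Pde6d, with a negative one. One of the high-fat libraries here is that of the lowest deposited sum. Without it the Adcy2 difference was 0.205, and 1 member in place of 6 had an unadjusted p under 0.05. Without the first high-fat replicate instead, 3 members passed, Adcy2, Pde6d and Pde9a, in a fit that keeps the library of lowest deposited sum. The share of all rows is not known for either fit, so neither count is a result about the members.

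At ZT 16 the kinase subunits had the smallest p. Prkar1b (chromosome 5, 139017306 to 139150001) stood at 651.1, 872.5 and 729 under normal chow and at 662.3, 609.7 and 482.5 under high-fat diet, so the groups overlapped. The difference was -0.36 ± 0.11 (SE; limma adjusted p = 0.285). The lowest library is the striatum-rich one, and without it the difference was -0.23 (limma adjusted p = 0.912). The normal chow library at 872.5 was the highest of all 36 for Prkar1b and also for Prkar1a. With 1 library left out at a time the Prkar1b difference ran from -0.459 to -0.23. Prkaca and Prkar1a had differences of -0.35 and -0.33 with limma adjusted p of 0.301 and 0.312. Without the striatum-rich library, the lowest of all 36 for both, they were -0.18 and -0.22. Crtc1 and Crtc3 had 0.37 and 0.22, with limma adjusted p of 0.376 and 0.45, and 0.21 and 0.28 without the same library.

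At the other times the smallest p belonged to Pde5a, Prkar1b and Creb1. Pde5a, a cGMP-specific enzyme, stood at 0.8888, 1.387 and 1.298 against 1.354, 1.45 and 4.237 at ZT 0, a difference of 0.51 ± 0.248 (SE; limma adjusted p = 1). The groups overlapped. The highest is a liver-rich library that also had the highest meningeal marker sum of all libraries, 399.5. Without it the difference was 0.14. At ZT 4 Pde5a stood at 1.146, 0.6923 and 0.9021 against 1.439, 1.324 and 2.421, with no overlap and a difference of 0.50 ± 0.248 (SE; adjusted p = 1). The library at 2.421 had a meningeal marker sum of 275, against a high-fat median of 105.9. Prkar1b at ZT 12 had a difference of 0.15 ± 0.11 (SE), and without the first high-fat replicate 0.0637, without the third 0.225 and without the striatum-rich library 0.0967. Creb1 at ZT 20 stood at 18.34, 19.63 and 19.99 under normal chow against 15.13, 19.92 and 10.71 under high-fat diet, a difference of -0.36 ± 0.163 (SE; limma adjusted p = 0.772). Without the library at 10.71 it was -0.144, and without that at 19.92 it was -0.563.

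Other genes of the pathway were taken from 6 lists: G proteins, receptors that couple to the stimulatory G protein, anchors and inhibitors of protein kinase A, the other cAMP effectors (Epac, HCN and CNG families), the CREB family with its coactivators and salt-inducible kinases, and known CREB targets. They hold 87 genes that are no members, of which 77 were tested over both diets. For a rhythm common to both diets 4 of the 77 passed (5.19%, against 2.18% of all rows): 1 of 9 G protein genes, 1 of 11 in the CREB family list and 3 of 15 CREB targets, with Crem in both of the last lists. None of 20 receptors, 15 anchors and inhibitors or 9 other effectors passed. The clock genes Per1 and Per2 are among those that passed, and the lists were made with earlier results of these data known. The share above that of all rows is therefore no evidence of a rhythm of the pathway.

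The fitted peaks of Per1 and Per2 lay close together, and those of Crem and Rgs16 lay at other times. Per1 and Per2, clock repressors that CREB also induces, had fitted folds of 1.45 and 1.46 with peaks at ZT 11.4 and 12.2 (limma adjusted p = 0.0138 and 0.0169). Per1 rose from 21.88 ± 5.84 at ZT 0 to 33.16 ± 8.88 at ZT 12 under normal chow, and from 19.33 ± 0.819 to 31.65 ± 5.07 under high-fat diet (SD, n = 3 each). Crem, a CREB relative that also gives the repressor ICER, had a smaller fold of 1.22, peaking at ZT 21.0 (limma adjusted p = 0.0387). Its level was 13.24 ± 0.526 at ZT 0 and 10.4 ± 0.593 at ZT 8 under normal chow and 13.4 ± 1.71 and 10.51 ± 2.0 under high-fat diet (SD, n = 3 each). Rgs16, a regulator that shuts off inhibitory G proteins, had a fold of 1.75, peaking at ZT 4.47 (limma adjusted p = 0.0485) and a level of 50.16 ± 16.0 at ZT 4 against 31.58 ± 7.16 at ZT 20 under normal chow (SD, n = 3 each).

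Per1 and Per2 kept their call whichever 1 library was left out, with adjusted p of at most 0.0361 and 0.0432 in limma, while Crem lost it in 14 of 36 cases and Rgs16 in 26. Without the 2 striatum-rich libraries only Per1 passed, and the folds of Per1, Per2, Crem and Rgs16 were 1.39, 1.38, 1.22 and 1.71. Without the 3 liver-rich ones only Rgs16 passed, with folds of 1.36, 1.41, 1.23 and 1.79 in the same order. Crem also missed the threshold with the values as deposited (limma adjusted p = 0.0952) and with median-of-ratios scaling (0.0551). Leaving out 1 library left 2 calls in 9 cases: the second replicate of ZT 0, the first of ZT 8, replicates 2 and 3 of ZT 12 (each alone) and the second of ZT 20 under normal chow, and the first or second of ZT 0 and replicates 2 and 3 of ZT 12 under high-fat diet. In each diet alone, and between diets in level or rhythm, 0 of these genes passed. Under normal chow 10 of the 77 tested genes had an unadjusted p under 0.05 in limma, against 18.2% of all rows. The smallest p belonged to Crebl2 (adjusted p = 0.104) and to Sik2, a kinase that keeps CRTC proteins out of the nucleus. Sik2 had a fold of 1.51 and a peak at ZT 16.9 (adjusted p = 0.106). Under high-fat diet there were 8 of 79, against 8.64% of all rows, led by Per2 with a fold of 1.66 and Per1 with 1.60 (limma adjusted p = 0.11 and 0.187). Between diets over all times there were 3 of 77, against 2.56% of all rows. These were Gnai1, Pkia and Vgf, all lower under high-fat diet (limma log2 difference -0.12, -0.10 and -0.11, adjusted p = 1).

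Some of the widest differences between libraries went with striatal markers. All 8 striatal marker rows, Ppp1r1b at 615.2 and 845.3 among them, were higher in both striatum-rich libraries than in any of the other 34. So were 8 of 41 members, against 4.46% of rows: Pde10a, Pde1b, Adcy5, Pde2a, Pde7b, Prkar2b, Pde8b and Adcy9. Both libraries lay below all others for 2 of 41, Adcyap1 and Adcy8, against 1.72% of rows. These 2 libraries were picked out by their markers, 1 from each diet, so the counts carry no test.

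Pde10a (chromosome 17, 8525372 to 8986648) stood at 120 in the normal chow library and 173.5 in the high-fat library, and at 7.86, 17.55 and 39.86 (lowest, median and highest) in the other 34, so the ratios to that median were 6.84 and 9.88. Pde1b stood at 299.6 and 391.6 against a median of 91.06, and Adcy5 at 225.1 and 325.9 against 98.17. Pde2a stood at 207.1 and 274.4 against 99.18, Pde7b at 50.7 and 64.18 against 21.48, and Prkar2b, the type II subunit known from brain and fat, at 111.3 and 88.58 against 54.37. In the other direction Adcyap1 stood at 29.75 and 32.22 against a lowest level of 38.01 elsewhere, and Adcy8 at 15.32 and 13.18 against 16.62. The coefficient of variation over all libraries fell from 116% to 36.6% for Pde10a, from 56.6% to 21.3% for Pde1b and from 42.9% to 23% for Adcy5 once both libraries were left out.

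**Figure D5:**
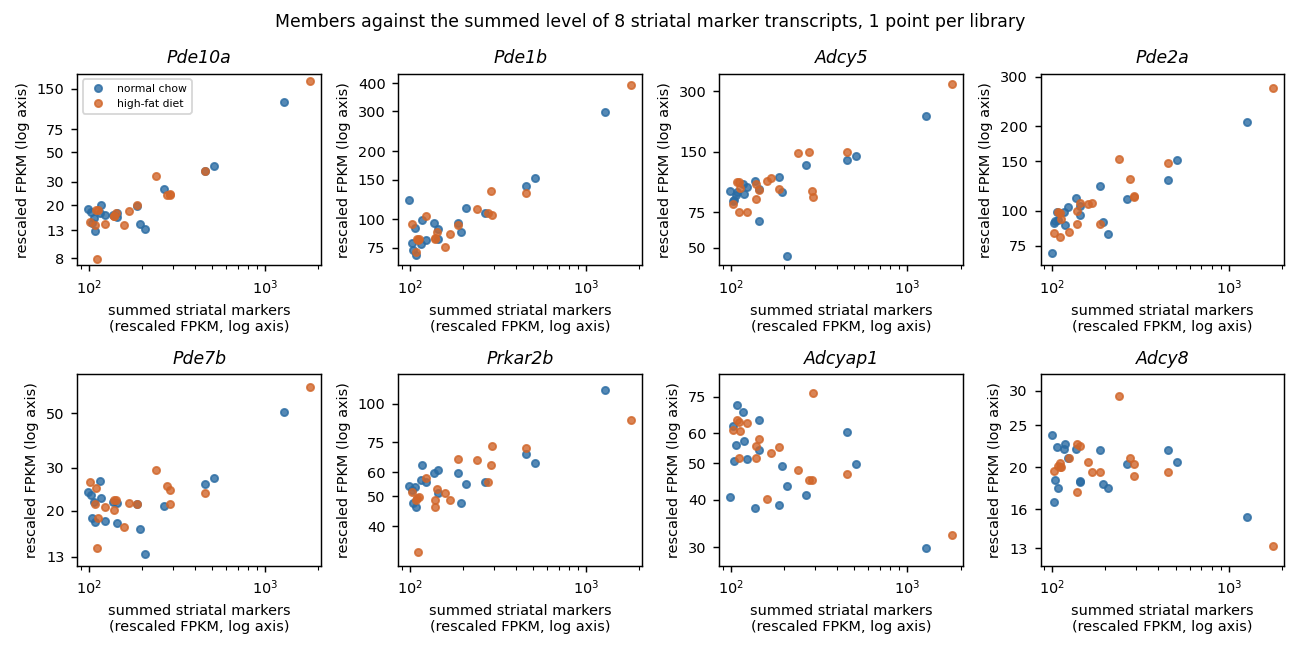
Level of 8 members against the summed level of 8 striatal marker rows, both in rescaled FPKM on log axes, with 1 point per library coloured by diet. The 2 libraries at the right, 1 of each diet, are highest for Pde10a, Pde1b, Adcy5, Pde2a, Pde7b and Prkar2b and lowest for Adcyap1 and Adcy8.

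The relation was also tested within groups, by a limma slope on the mean log2 level of the striatal markers with the 12 group means in the model. Over 36 libraries 8 of 41 members had a positive slope past the test, against 6.84% of rows, and 2 a negative one, against 4.60%. The positive ones were Pde10a, Pde1b, Pde2a, Adcy5, Prkar2b, Pde8b, Pde7b and Crtc1, and the negative ones Adcyap1 and Prkar1b. Without the striatum-rich libraries 4 positive slopes remained past the test, against 0.890% of rows: Pde1b, Pde10a, Pde2a and Prkar2b. Leaving out the library of lowest deposited sum as well, 3 did, against 0.917%. Their slopes were 0.53 ± 0.078 for Pde10a, 0.36 ± 0.051 for Pde1b and 0.29 ± 0.043 for Pde2a, in log2 level per unit of log2 score (SE, n = 33; limma adjusted p = 1.94e-04, 1.18e-04 and 1.79e-04).

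Scores of other tissues touched fewer members. On the score of 7 oligodendrocyte markers, which summed to 4051 to 7723 under normal chow and 3802 to 8636 under high-fat diet, 1 of 41 members had a positive slope past the test (1.87% of rows). It was Pde8a, a high-affinity cAMP enzyme, with 1.05 ± 0.192 (SE, n = 36; limma adjusted p = 0.00133). Without the striatum-rich libraries 3 members had a positive slope, Pde8a, Pde4b and Crtc2 (4.53% of rows), and 1 a negative one, Adcyap1 (0.844%). With the library of lowest sum also left out, Pde8a (3.22% of rows positive) and Adcyap1 (0.712% negative) passed. On the score of 6 meningeal markers (41.66 to 221.8 and 40.71 to 399.5) 3 members passed (3.39% of rows), Pde5a at 0.44 ± 0.080, Crtc2 at 0.25 and Adcy4 at 0.24 (limma adjusted p = 9.12e-04, 0.0299 and 0.043). Without the striatum-rich libraries only Pde5a passed (2.93% of rows), and likewise when the library of lowest sum was also left out (3.14%). On the score of 9 markers of other hypothalamic nuclei (1780 to 5997 and 1222 to 7762) 1 member had a negative slope (0.264% of rows), Pde11a at -0.41 ± 0.078 (SE, n = 36; limma adjusted p = 0.0115). Pde11a also passed without the striatum-rich libraries (0.270% of rows) and with the library of lowest sum left out too (0.251%). No member followed the SCN marker score (limma, 0.0330% of rows positive and 0.0132% negative). Adcyap1 came closest, with a slope of 0.40 ± 0.119 (SE, n = 36; unadjusted p = 0.00263, adjusted p = 0.169). With the scores of striatum, oligodendrocytes, other hypothalamic nuclei, meninges and blood as covariates, 0 members passed any of the rhythm and diet tests (limma), as without them.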

How the data were processed

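RNA of the SCN-enriched region was sequenced from TruSeq stranded mRNA libraries, per the labels' protocols. Per the submitters' processing notes the authors used Trimmomatic, TopHat and Cufflinks with builds mm10 and GRCm38; versions are not given in the sources used here. The deposited values are FPKM, as their range and the use of Cufflinks imply, in 1 table per diet. The 2 tables may have been made separately, so diet and table cannot be told apart. Read depth is unknown, so no counting interval is given.

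Each library was rescaled to 1e+06 over the shared rows and transformed as log2(value + 1), which understates changes of low genes. Rows with a mean of at least 1 over the libraries of a fit were tested with limma 3.58.1 (mean-variance trend, R 4.3.3). Tests with a direction were two-sided, and Benjamini-Hochberg adjustment covered all rows tested. Rhythms are a cosine and a sine of 24 h; the diet test had time point as a factor. The fits were run on simulated data with independent noise and no differences in tissue makeup. That run does not show how they behave on libraries such as these. Alternatives were other scalings, pseudocounts 0.1 and 5, no filter, robust variances, a replicate block, 5 marker scores as covariates and libraries left out. The slopes on marker scores, the runs without the library of lowest sum, the ZT 16 values without the striatum-rich library, the motif shares per window and the pathway count under the alternatives were added after seeing the data.

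Members and lists were chosen with earlier results of these data known. Members named with all values are the 3 with the smallest p in each of the 5 main tests, the 1 at each time point, any called, and Adcyap1, Adcyap1r1, Pde10a, Adcy5, Prkaca and Creb1; others are named by role. Pathway genes are named when called or for the smallest p, at most 2 per list and test. Of the marker lists, those of thalamus, blood, choroid plexus and pituitary summed to 30.76 to 384.6, 1240 to 7782, 23.71 to 58.25 and 6.839 to 375.1 over the libraries.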

Additional observations from a re-analysis of the deposited data

How the results depend on the processing

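The unit is inferred, depth is unknown, each diet has its own table and each group 3 libraries, so small differences were not detectable, and low transcripts such as Pde5a and Pde3a are the least certain. Members called were 0 in each main test. Under normal chow the count was 1 (Creb1) with values as deposited and with median-of-ratios scaling, and 0 to 1 when libraries were left out in turn. Over both diets it was 1 (Creb1) with median-of-ratios scaling and 0 to 1 with libraries left out, and at ZT 8 it was 0 to 3. The share of all rows in these alternative fits is not known. In all other tests and settings run it was 0. Pathway genes with a common rhythm numbered 4, against 1 without liver-rich libraries, 1 without striatum-rich libraries, 1 with time point as a factor (Crem) and 2 to 5 with libraries left out. Members following the striatal score fell from 10 to 4 without the striatum-rich libraries and to 3 when the library of lowest sum was also left out. On the oligodendrocyte score they went from 1 to 4 and 2, and on the meningeal score from 3 to 1 and 1.

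Near 0 some values turned direction. With values as deposited the normal chow fold of Adcyap1r1 was 1.03, with its peak moved, and the diet difference of Prkaca -0.000412. With marker scores as covariates the high-fat folds of Pde10a and Creb1 were 1.19 and 1.09 with moved peaks, the Pde10a diet difference -0.0202 and the Pde5a difference at ZT 0 -0.00732. The Pde10a diet difference was -0.00682 without striatum-rich libraries and -0.0298 without the library of lowest sum, where that of Prkaca was -0.00987. With libraries left out in turn, diet differences ran from -0.157 to 0.164 for Pde10a, -0.0382 to 0.00562 for Adcyap1r1, -0.00987 to 0.0474 for Prkaca and -0.0692 to 0.00132 for Creb1, and the normal chow fold of Prkaca from 1.01 to 1.07. The cause was not tested. Scaling moved the median of all genes by less than 0.1, and 20 to 23 members were positive for diet.

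Whether replicate numbers pair the libraries was not settled. Deviations of same-numbered libraries of different groups had a mean correlation of 0.0418 over 198 pairs (61 over 0.1). For other numbers it was -0.0206 over 396 pairs (76 over 0.1). Levels were centred within each group, so these means are not independent of each other. A replicate block left the member calls at 0 in every test, and the adjusted p of Creb1 under normal chow was 0.0882 in limma.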
